A study of Rattus norvegicus with 6 samples.

Results

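The organic anion and cation transporters described here are 9 solute carrier genes of the kidney tubule, Slc22a6, Slc22a8, Slc22a7, Slc22a24, Slc22a25, Slco1a3, Slco4c1, Slc22a2 and Slc22a5, taken by name. All 9 had a probe on the array, 11 probes in all, with 2 each for Slco1a3 and Slc22a5. Of the 11 probes 10, for 8 of the 9 genes, passed a filter on brightness (well above background, in Cy5 or Cy3, on 2 or more arrays), out of 30917 probes and 12789 named genes that did so. The probe of Slco4c1 did not pass. The kidneys came from the Han:SPRD rat, a strain in which the Cy mutation, a missense change in Anks6, causes polycystic kidney disease. RNA pooled from kidneys of homozygous Cy/Cy rats, heterozygous Cy/+ rats and unaffected +/+ rats was labelled with Cy5, each at 7 and at 3 days of age, 1 array per genotype and age. Every Cy5 pool was hybridized against Cy3-labelled RNA of +/+ kidneys of the same age, without a dye swap. The number of animals in a pool is not stated in the labels, nor whether pools were separate. The p-values below therefore measure spread between arrays, not between animals. For ratios to the reference, the error of a probe is shared by both mutant genotypes and drawn towards that of all probes. The 2 arrays of a genotype also differ in age.

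Organic ion transporters carry charged drugs, toxins and metabolites through the cells of the proximal tubule. On the basolateral side, Slc22 carriers take up organic anions in exchange for dicarboxylates, or organic cations along the membrane potential. Pumps and exchangers on the apical side then pass the solutes into the urine. Many of these genes are switched on around and after birth as the proximal tubule matures.

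The Cy5 pools labelled +/+ differed widely from the +/+ reference beside them. Between the channels 0.0582% to 0.913% of all probes differed at least 2-fold on the arrays of mutant pools, against 14.7% at 7 days and 18.6% at 3 days on those labelled +/+. The median log2 ratio (Cy5 over Cy3) of 10 liver markers was 0.02 to 0.31 on the arrays of mutant pools, against 4.62 at 7 days and 5.15 at 3 days on those labelled +/+. Skeletal muscle markers were also high on the arrays labelled +/+ (3.74 and 4.07), and proximal tubule markers were low there (-1.92 and -2.64). Their Cy3 channel stood apart too: the log2 summed Cy3 level of the 8 muscle markers was 10.19 to 10.50 on the arrays of mutant pools, against 15.20 at 7 days and 14.49 at 3 days on those labelled +/+, and that of the liver markers was 12.54 to 12.90, against 14.39 and 13.92. For these markers the Cy3 signal on the arrays labelled +/+ thus differed from that on the other arrays, and the source of the difference was not tested. For the 8 transporter genes the log2 summed Cy3 level was 13.67 at 7 days and 13.77 at 3 days there, against 13.90 to 13.93 on the arrays of mutant pools. Their summed Cy5 level was 11.44 and 11.38, against 14.16 to 14.44. The Cy3 reference on the arrays of mutant pools is the control in the main comparisons, and values that use the arrays labelled +/+ are given apart or named as such. The reference counts as 1 control pool per age, so its own spread is not in the error. On each slide lay the arrays of 1 age with genotypes at fixed positions: age and slide, and genotype and position, cannot be told apart. In whole-kidney RNA, fewer tubule cells and less RNA per cell cannot be told apart either.

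**Figure D1:**
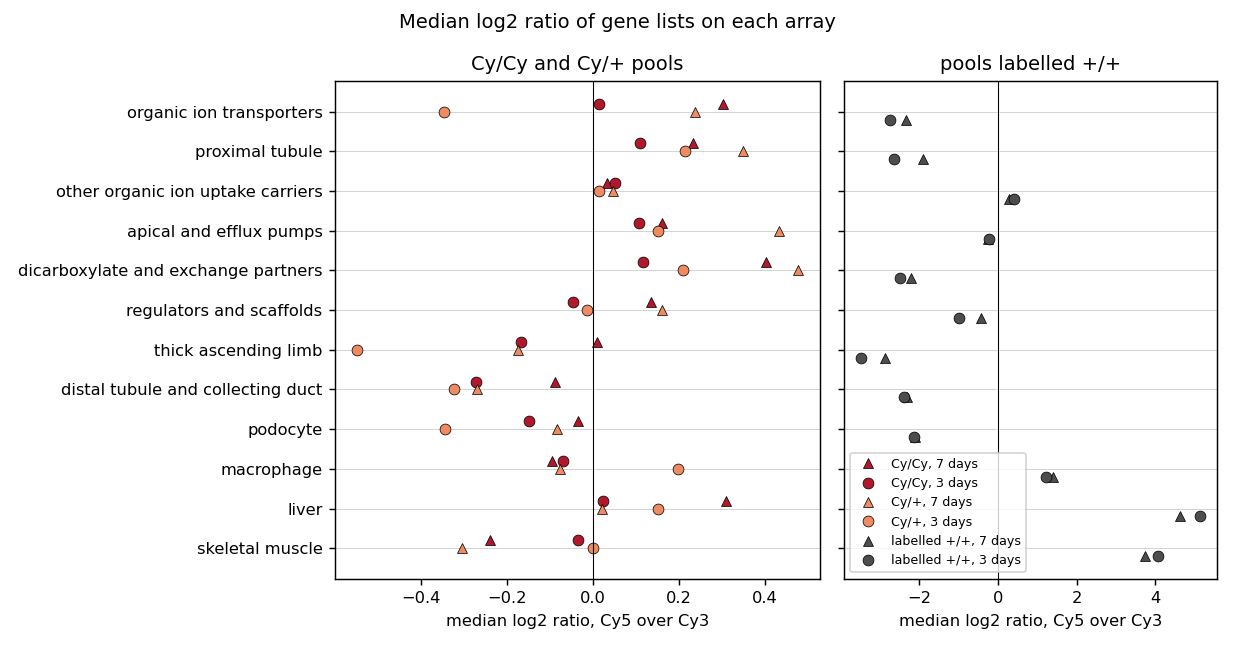
Median log2 ratio (Cy5 over Cy3) of each gene list on each array, mutant pools in the left panel and pools labelled +/+ in the right panel, which has a wider axis. Circles are 3 days and triangles 7 days. On the arrays labelled +/+ the transporters were at -2.35 and -2.76 and the liver list at 4.62 and 5.15.

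In Cy/+ pools 3 of the 10 transporter probes, those of Slc22a24 and both of Slco1a3, rose against the reference at an adjusted p under 0.05 (limma, Benjamini-Hochberg over all probes), where 4.63% of all probes tested were called higher. None of the 10 was called lower, against 3.3% of all probes. An unadjusted p under 0.05 (limma) was found for 6 of the 10 and for 8912 of 30914 probes tested. In Cy/Cy pools 0 of the 10 were called, where 0.00647% of all probes (2 probes) were called. There 4 of the 10 had an unadjusted p under 0.05 (limma), as had 2673 of 30916 probes tested. The median log2 ratio of the 10 probes was 0.16 in Cy/Cy pools and 0.08 in Cy/+ pools, against 0.0054 and 0.0046 over all probes. Slco1a3 and Slc22a5 count with both of their probes in these medians. With each gene read from its brightest probe only, the median of the 8 genes was -0.07 in Cy/+ pools, with 3 above 0. In Cy/Cy pools it was 0.13, with 6 of the 8 above 0. The positive median in Cy/+ pools was thus not kept at the level of genes.

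**Figure D2:**
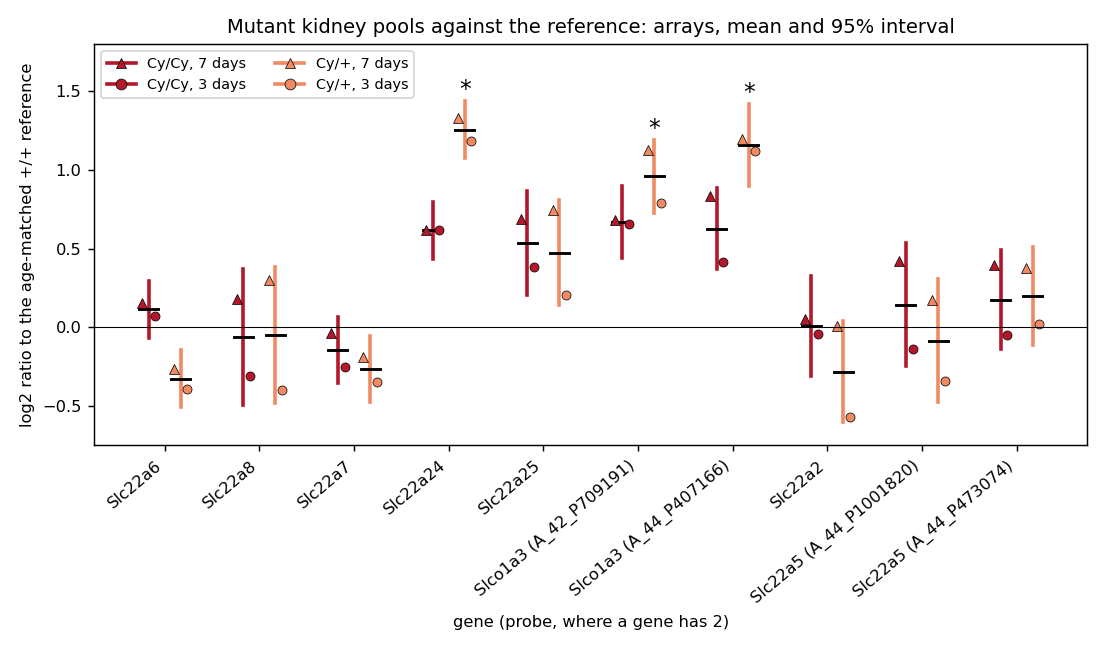
Log2 ratio to the age-matched +/+ reference for the 10 probes that passed the filter, Cy/Cy at the left and Cy/+ at the right of each pair. Symbols are single arrays (triangles 7 days, circles 3 days), black bars means, coloured lines 95% intervals from limma, and asterisks mark an adjusted p under 0.05. Slc22a24 and both probes of Slco1a3 carry asterisks in Cy/+, at 1.26, 0.96 and 1.16.

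Slc22a6 (Oat1) and Slc22a8 (Oat3) are the main basolateral uptake carriers for organic anions such as para-aminohippurate, and they lie side by side on chromosome 1. Their 60-base probes, each with a reading frame open from end to end, are shown because they identify what was measured. The probe positions in build rn3, as deposited, are chr1:211456380-211456569 for Slc22a6 and chr1:211444489-211444548 for Slc22a8, both on the plus strand; the first span is wider than the probe. No annotation of that build was used, so exons were not assigned.
Slc22a6: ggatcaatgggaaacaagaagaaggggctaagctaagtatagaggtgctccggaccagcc
Slc22a8: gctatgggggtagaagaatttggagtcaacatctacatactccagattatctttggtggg

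The log2 ratio of Slc22a6 was 0.15 at 7 days and 0.07 at 3 days in Cy/Cy pools, and -0.26 and -0.39 in Cy/+ pools. Both Cy/Cy arrays were slightly above the reference and both Cy/+ arrays below it. The mean was 0.11 ± 0.076 (SE, n = 2, adjusted p = 0.684, limma) in Cy/Cy pools and -0.33 ± 0.076 (n = 2, adjusted p = 0.05002, just above the threshold, limma) in Cy/+ pools. With age as a block the adjusted p in Cy/+ pools was 0.0300, and with no filter on dim probes 0.0462. Centring each array on its median instead of loess turned the Cy/+ value to 0.20. The median of all probes tested was itself 0.19 under that setting, so Slc22a6 lay only 0.0082 above it.

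Slc22a8 gave 0.18 (7 days) and -0.31 (3 days) as log2 ratios in Cy/Cy pools, and 0.30 and -0.40 in Cy/+ pools. At 7 days both genotypes were above the reference and at 3 days both below it, and the genotypes overlapped. Its means were -0.06 (95% interval -0.49 to 0.37) in Cy/Cy pools and -0.05 (-0.48 to 0.38) in Cy/+ pools, neither called.

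Slc22a7 (Oat2), an anion carrier of liver and kidney, has its probe at chr9:9936875-9937444 in rn3. Its log2 ratio was -0.04 at 7 days and -0.25 at 3 days in Cy/Cy pools, and -0.19 and -0.35 in Cy/+ pools. All 4 values were below the reference. The means of -0.15 ± 0.087 in Cy/Cy pools (SE, n = 2, adjusted p = 0.656, limma) and -0.27 ± 0.087 in Cy/+ pools (adjusted p = 0.105) did not pass the test.

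Slc22a24, named Slc22a19 in the files, encodes Oat5, an organic anion exchanger of the rat proximal tubule, and its probe lies at chr1:210567731-210567790 on the minus strand of rn3. Its log2 ratio was 0.62 at 7 days and 0.62 at 3 days in Cy/Cy pools, and 1.33 and 1.18 in Cy/+ pools. All 4 mutant pools were above the reference and both Cy/+ pools above both Cy/Cy pools. In Cy/+ pools it rose 2.39-fold (log2 1.26 ± 0.076 SE, n = 2, adjusted p = 0.00310, limma). In Cy/Cy pools the value was 0.62 ± 0.076 (n = 2, adjusted p = 0.268, limma), and it was called (adjusted p = 0.0390) when either Cy/+ array was left out of the shared fit.

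Slc22a25 stands under another symbol, Slc22a9, in the files and belongs to the same branch of anion carriers; its probe lies at chr1:211281290-211281349 on the minus strand. The log2 ratio was 0.69 at 7 days and 0.39 at 3 days in Cy/Cy pools, and 0.74 and 0.20 in Cy/+ pools. Each genotype was higher at 7 than at 3 days, and the genotypes overlapped. The means were 0.54 ± 0.14 (SE, n = 2, adjusted p = 0.488, limma) in Cy/Cy pools and 0.47 ± 0.14 (adjusted p = 0.0831) in Cy/+ pools. The Cy/+ value passed the test with age as a block (adjusted p = 0.0148) and, at 0.74, without the 3-day Cy/+ array (adjusted p = 0.0266).

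The promoters of Slc22a24 and Slc22a25 share a stretch of sequence. They are given as the 250 bases before the start site in RefSeq, build GRCr8. Slc22a24 is at chr1:214394682-214394931 and Slc22a25 at chr1:214862341-214862590, both on the minus strand. They are shown for the 24-base run they have in common, marked by capitals.
Slc22a24: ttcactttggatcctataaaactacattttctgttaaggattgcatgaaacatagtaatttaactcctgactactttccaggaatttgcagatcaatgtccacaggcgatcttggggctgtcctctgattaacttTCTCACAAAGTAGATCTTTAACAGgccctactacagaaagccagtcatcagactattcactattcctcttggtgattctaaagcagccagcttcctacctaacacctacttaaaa
Slc22a25: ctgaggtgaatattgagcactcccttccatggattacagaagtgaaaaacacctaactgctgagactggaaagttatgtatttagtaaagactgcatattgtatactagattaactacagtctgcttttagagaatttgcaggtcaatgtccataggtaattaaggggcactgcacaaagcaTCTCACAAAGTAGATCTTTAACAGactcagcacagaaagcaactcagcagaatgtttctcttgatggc

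Aligned end to end with free end gaps, the promoters of Slc22a24 and Slc22a25 matched at 140 of 196 paired bases (71.4%). Other member pairs of similar aligned length lay on both sides of this value. They ran from 68.3% (149 of 218, Slc22a2 and Slco4c1) to 76.5% (143 of 187, Slc22a24 and Slc22a7). The identity alone therefore does not set the pair apart. The longest run in common between any other pair of the 8 member promoters in the table was 10 bases. The table had no entry for Slc22a6. The nuclear receptor motif AGGTCA, searched on both strands, occurred in 2 of the 8, those of Slc22a25 (starting at -110 from the start site) and Slco1a3 (-131), and in 14.1% of 33469 rat promoters of the same length. The HNF4 core AAAGTCC occurred in 0 of 8 and in 3.99% of all. No match overlapped another. A match is a run of letters, and binding was not measured.

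Slco1a3, named Slc21a4 in the files, encodes the kidney-specific anion and methotrexate carrier Oat-k of the rat tubule. Its probe A_44_P407166 is shown because it carries a called result; it lies at chr4:179808520-179808579 on the minus strand of rn3, and the other, A_42_P709191, at chr4:179798060-179798119.
Slco1a3 A_44_P407166: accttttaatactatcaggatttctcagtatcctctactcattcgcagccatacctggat

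Probe A_44_P407166 of Slco1a3 gave 0.84 (7 days) and 0.42 (3 days) as log2 ratios in Cy/Cy pools, and 1.20 and 1.12 in Cy/+ pools. Probe A_42_P709191 of Slco1a3 had 0.68 and 0.66 in Cy/Cy pools and 1.13 and 0.79 in Cy/+ pools. With either probe all 4 mutant pools were above the reference and both Cy/+ pools above both Cy/Cy pools. In Cy/+ pools the rise was 2.23-fold with A_44_P407166 (log2 1.16 ± 0.11 SE, n = 2, adjusted p = 0.00744, limma) and 1.94-fold with A_42_P709191 (0.96 ± 0.096, adjusted p = 0.00916). In Cy/Cy pools Slco1a3 was at 0.63 ± 0.11 (adjusted p = 0.327) with the first probe and 0.67 ± 0.096 (adjusted p = 0.268) with the second, which was called (adjusted p = 0.0270) when either Cy/+ array was left out. The deposited software's own log ratios gave 0 calls in Cy/+ pools over all probes, and an adjusted p of 0.121 for Slc22a24 and both probes of Slco1a3.

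Slco4c1, a basolateral carrier of digoxin and thyroid hormone, was not well above background in either channel on any of the 6 arrays. Its Cy5 spot means were 50.3 to 56.9 and its Cy3 spot means 49.2 to 64.1 intensity units, so its level was not detectable with this probe, and no ratio is read from it.

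Slc22a2 (Oct2) is the basolateral uptake carrier for organic cations, with its probe at chr1:42420938-42423386 in rn3. Its log2 ratio was 0.05 at 7 days and -0.04 at 3 days in Cy/Cy pools, and 0.01 and -0.57 in Cy/+ pools. The 3-day Cy/+ pool was low and the other 3 mutant pools lay at the reference. The means were 0.01 (95% interval -0.31 to 0.33) in Cy/Cy pools and -0.28 (-0.60 to 0.04) in Cy/+ pools, neither called. Without the 7-day Cy/+ array the Cy/+ value was -0.57 and passed the test (adjusted p = 0.0179), and without the 3-day array it was 0.01.

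Slc22a5 (Octn2) recovers carnitine from the urine at the apical membrane, and it was measured by 2 probes on chromosome 10. Probe A_44_P1001820 of Slc22a5 gave 0.42 (7 days) and -0.14 (3 days) as log2 ratios in Cy/Cy pools, and 0.17 and -0.34 in Cy/+ pools. Probe A_44_P473074 of Slc22a5 had 0.40 and -0.05 in Cy/Cy pools and 0.38 and 0.02 in Cy/+ pools. The values were higher at 7 than at 3 days with both probes, and the genotypes overlapped with both. The Cy/Cy means of 0.14 and 0.18 and the Cy/+ means of -0.08 and 0.20 did not pass the test, and the probes differed in sign for Cy/+. Over the 6 arrays the 2 probes of Slc22a5 differed by 0.02 to 0.60, and those of Slco1a3 by 0.07 to 1.88, the largest differences being on arrays labelled +/+.

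Between the mutant genotypes 0 of the 10 probes were called for Cy/Cy minus Cy/+ (limma), as were 0% of all probes. An unadjusted p under 0.05 was found for 3 of the 10 and for 1889 of 30913 probes tested. Slc22a24 was lower in Cy/Cy than in Cy/+ pools by a log2 difference of -0.64 (95% interval -0.90 to -0.38, unadjusted p = 0.000678, adjusted p = 0.498, limma). For Slco1a3 the differences were -0.53 (-0.90 to -0.17) with A_44_P407166 and -0.29 (-0.62 to 0.04) with A_42_P709191. Slc22a6 differed the other way by 0.44 (0.18 to 0.70, unadjusted p = 0.00516, adjusted p = 0.716). The other 6 differences ran from -0.02 to 0.29, with intervals that took in 0. Log2 ratios spread more widely on the Cy/+ arrays as a whole. Their SD was 0.23 at 7 days and 0.32 at 3 days, against 0.16 and 0.17 on the Cy/Cy arrays. The part of this spread in the genotype differences was not tested.

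On the arrays labelled +/+ the transporters split into groups. Slc22a24 gave a log2 ratio of -4.06 (7 days) and -5.03 (3 days), and that of Slc22a25 was -3.95 and -4.63. Slco1a3 gave -4.27 and -5.14 with probe A_42_P709191, and -2.39 and -3.28 with probe A_44_P407166, so that its probes differed. Slc22a8 (-2.36 and -3.04), Slc22a6 (-2.33 and -2.34) and Slc22a2 (-2.08 and -2.48) were intermediate, and both probes of Slc22a5 were between -0.64 and -1.87. Slc22a7 was the exception, with 1.81 at 7 days and 2.04 at 3 days. The software's own ratios gave another order on these arrays. At 3 days Slc22a2 was then at -4.35 and Slco1a3 A_44_P407166 at -5.28, beyond Slc22a8 (-3.59) and Slc22a6 (-2.72). Against these arrays 9 of the 10 probes were called higher and 1, Slc22a7, lower in both Cy/Cy and Cy/+ pools, where 10.6% of all probes were called higher and 18.4% lower for Cy/Cy, and 11% and 18.7% for Cy/+. The calls held under every alternative run on those comparisons. The largest difference was of Slco1a3 probe A_42_P709191 for Cy/Cy, at 5.37 ± 0.22 (SE, n = 2, adjusted p = 0.000114, limma), and of Slc22a24 for Cy/+, at 5.80 ± 0.25 (adjusted p = 0.000139). Both rest on the low Cy5 levels given above, and under the alternatives they ran from 3.52 to 7.45 and from 3.78 to 7.65. For Slc22a7 the differences were -2.07 ± 0.15 for Cy/Cy and -2.19 ± 0.15 for Cy/+. Probe A_44_P407166 of Slco1a3 was not well above background in Cy5 on the 7-day array labelled +/+. All 10 markers of liver were called lower in Cy/Cy and in Cy/+ pools than on the arrays labelled +/+, and their part in the result was not tested.

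**Figure D3:**
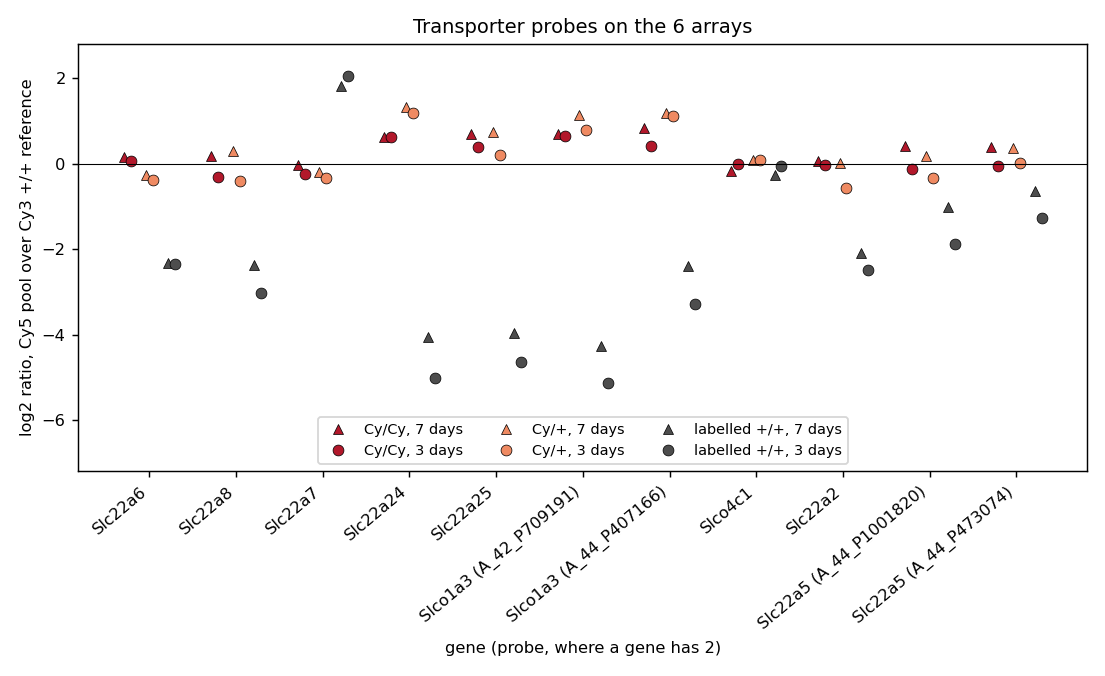
Log2 ratio (Cy5 over Cy3) of the 11 transporter probes on the 6 arrays, with Cy/Cy, Cy/+ and labelled +/+ from left to right for each probe. Triangles are 7 days and circles 3 days. The arrays labelled +/+ lie between -0.64 and -5.14 for 9 probes and at 1.81 and 2.04 for Slc22a7, and all values of Slco4c1 are near 0.

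Age was compared over the channel levels of the Cy/Cy, Cy/+ and reference pools. Of the 10 probes 1 was called higher and 1 lower at 7 than at 3 days, where 5.45% of all probes were called higher and 4.29% lower. Slc22a6 had log2 levels of 12.48 in Cy/Cy, 12.04 in Cy/+ and 12.32 in reference pools at 7 days, against 11.89, 11.58 and 11.89 at 3 days. It rose 1.41-fold with age (log2 0.49 ± 0.070 SE, n = 3 pools an age, adjusted p = 0.0238, limma), in 3 of 3 pools. Slc22a7 had 7.76 in Cy/Cy, 7.44 in Cy/+ and 7.72 in reference pools at 7 days, against 8.10, 7.94 and 8.32 at 3 days. It fell 1.39-fold with age (-0.48 ± 0.078, n = 3, adjusted p = 0.0277, limma), in 3 of 3 pools. Both calls were lost without the Cy/Cy pools, without the reference pools, and with the software's processed signals, where the highest adjusted p was 0.178 for Slc22a6 and 0.219 for Slc22a7. The other 8 differences ran from -0.31 to 0.25, and the intervals took in 0 for 7 of them; that of Slco1a3 A_44_P407166 was -0.54 to -0.08 (adjusted p = 0.0878).

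**Figure D4:**
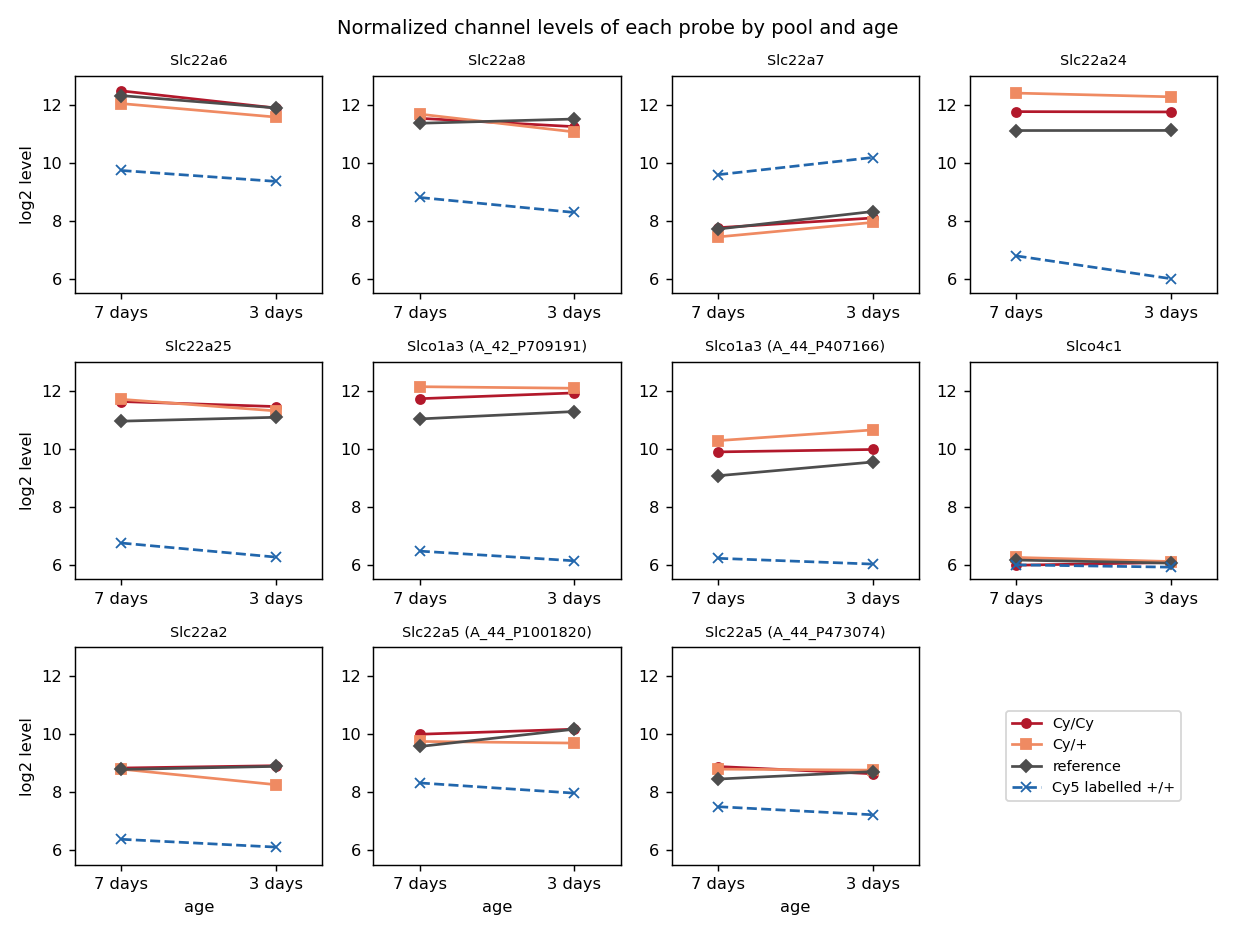
Normalized log2 channel level of each transporter probe at 7 and at 3 days in the Cy/Cy, Cy/+ and reference pools, with the Cy5 level of the pools labelled +/+ as a dashed line. Levels of different probes are not comparable. Slc22a6 is higher and Slc22a7 lower at 7 days in all 3 compared pools.

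The ratio to the reference was also compared between ages, a test added after the data were seen. It was larger at 7 than at 3 days for 10 of 10 probes, against 49.7% of all probes, with a median difference of 0.29 against -0.00093 over all probes. None of the 10 passed the test (limma), where 0.0485% of all probes did. An unadjusted p under 0.05 was found for 5 of the 10 and for 3010 of 30909 probes tested. The largest differences were of Slc22a8, 0.60 ± 0.11 (SE, n = 2 an age, adjusted p = 0.211, limma), and of Slc22a5 probe A_44_P1001820, 0.54 ± 0.10 (adjusted p = 0.223). Slc22a24 differed by 0.07 (95% interval -0.18 to 0.32). Both ratios of an age share 1 reference pool, so the 10 probes are not independent evidence. A larger ratio at 7 days was not particular to the transporters. It was found for 18 of 23 proximal tubule markers (median difference 0.22), 6 of 6 of thick ascending limb (0.20) and 5 of 5 of podocytes (0.09). Distal tubule and collecting duct had 7 of 9 (0.11), liver 8 of 10 (0.10), macrophage 2 of 6 (-0.05) and skeletal muscle 2 of 8 (-0.22). The part of these cell types in the result was not tested.

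Other genes of the transport route were read from 4 lists, of which 52 of 61 genes were measured. In Cy/+ pools 10 of the 52 were called higher and 1 lower, where 4.63% of all probes were called higher and 3.3% lower. In a fit with 1 probe a gene, the brightest, 929 of 12789 were called, 61.2% of them higher. The same shares stand beside the Cy/+ count of each list below. In Cy/Cy pools 0 were called (limma), and for Cy/Cy minus Cy/+ also 0. An unadjusted p under 0.05 (limma) was found for 12 of the 52 in Cy/Cy pools and 7 for Cy/Cy minus Cy/+. Over all probes it was found for 2673 of 30916 and 1889 of 30913. Of 19 other uptake carriers 3 rose in Cy/+ pools: Slco1a5 (0.93 ± 0.089 SE, n = 2, adjusted p = 0.00798, limma) and Slco1a6 (0.73 ± 0.071, adjusted p = 0.00832), relatives of Slco1a3 whose cross-hybridisation was not checked, and the carnitine and ergothioneine carrier Slc22a4 (0.69 ± 0.073, adjusted p = 0.0103). In Cy/Cy pools these 3 were at 0.48, 0.45 and 0.16, not called.

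Of 14 apical and efflux pumps 5 rose and 1 fell in Cy/+ pools. Slc47a1 (Mate1), the apical exit for organic cations taken up by Slc22a2, was at 0.42 ± 0.091 in Cy/Cy pools (SE, n = 2, adjusted p = 0.422, limma) and rose by 0.86 ± 0.091 in Cy/+ pools (adjusted p = 0.0102). The multidrug efflux pumps Abcb1a (adjusted p = 0.0115) and Abcb1b (adjusted p = 0.0143) rose too; the reference was not well above background on any mutant array, so the Cy/+ pools were at least 2.19-fold higher for Abcb1a and at least 1.51-fold for Abcb1b. The efflux pump Abcc1 fell by 0.55 on the log2 scale (adjusted p = 0.0481). The apical anion pumps Abcc2 (-0.16 in Cy/Cy and 0.02 in Cy/+ pools) and Abcc4 (-0.10 and 0.07) were not called in either genotype. With age Abcc2 fell by 0.78 (adjusted p = 0.0212).

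Of 8 dicarboxylate and exchange partners 2 rose in Cy/+ pools. Slc13a3, which supplies the dicarboxylate that basolateral anion carriers exchange, was at 0.58 ± 0.12 in Cy/Cy pools (SE, n = 2, adjusted p = 0.400, limma) and rose by 0.63 ± 0.12 in Cy/+ pools (adjusted p = 0.0337). The peptide carrier Slc15a2 was at 0.19 in Cy/Cy pools and rose by 0.77 in Cy/+ pools (adjusted p = 0.0165). Of 11 regulators and scaffolds 0 were called in Cy/+ pools (limma). An unadjusted p under 0.05 was found for 3 of the 11 and for 8912 of 30914 probes tested. Hnf4a, a nuclear receptor of the proximal tubule, was at -0.01 in Cy/Cy and -0.02 in Cy/+ pools. With age the apical peptide carrier Slc15a1 (0.51), Slc22a13 (0.31) and the nuclear receptor partner Rxra (0.40) rose, and the bile acid exporter subunit Slc51b fell by 0.34.

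**Figure D5:**
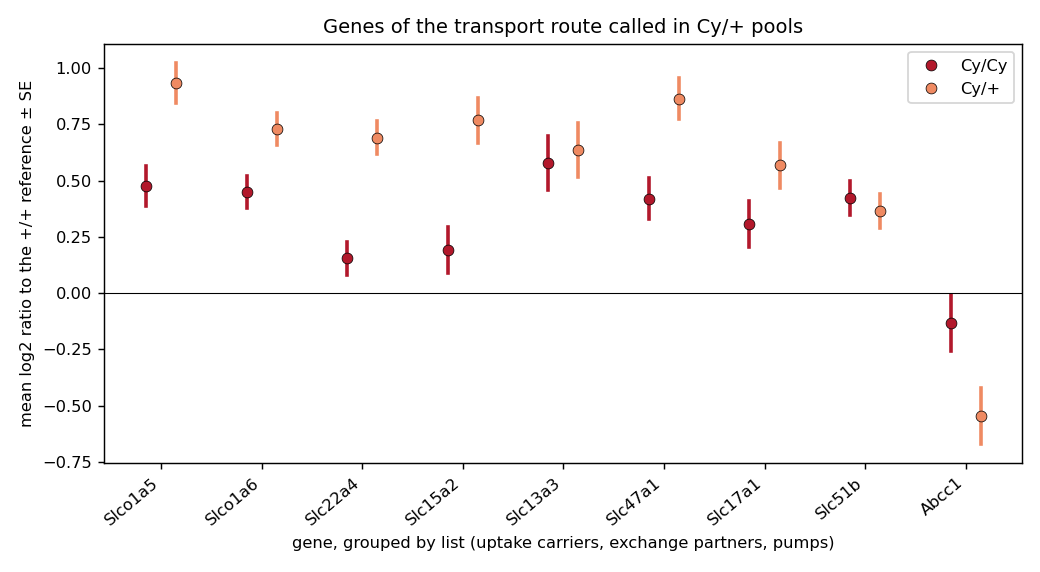
Mean log2 ratio to the +/+ reference with its SE (n = 2 arrays) in Cy/Cy and Cy/+ pools for the genes of the transport route that were called in Cy/+ pools, apart from Abcb1a and Abcb1b, for which only a bound exists. Slc13a3 and Slc51b have similar values in both genotypes, and Slc22a4 and Slc15a2 have values of 0.16 and 0.19 in Cy/Cy pools.

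At 1 probe a gene, the 8 transporter genes had a median of -0.07 in Cy/+ pools, with 3 above 0. The proximal tubule list had a median of 0.29 there, with 17 of 23 above 0, the direction of Slc22a24 and Slco1a3. Of its 23 measured genes 8 were called higher and 1 lower there, against 4.63% and 3.3% of all probes. In Cy/Cy pools 0 of the 23 were called, with a median of 0.17. An unadjusted p under 0.05 (limma) was found there for 10 of the 23 and for 2673 of 30916 probes tested. All 23 were well above background in Cy5 on every array. Their part in the result was not tested. Profiles were compared by the root mean square difference of the log2 ratios over all 6 arrays, those labelled +/+ included. The transporters had their largest ratios on the arrays labelled +/+, so a near gene need not share the values of the mutant pools. Over 12781 genes, the gene nearest to Slc22a24 was the amino acid carrier Slc7a13 (0.30), and that nearest to Slco1a3 was the endocytic receptor Lrp2 (0.30). Slc22a25 was nearest to the potassium channel gene Kcnj16 (0.24), Slc22a8 to Paqr5 (0.18), Slc22a6 to the sodium channel subunit Scnn1b (0.17), Slc22a5 to the kinase gene Nuak2 (0.14), Slc22a2 to the phospholipase gene Pla2g4a (0.12) and Slc22a7 to Septin5 (0.10). The mean profile of the transporters was nearest to Agxt2 (0.06), Pyroxd2 (0.13), Arhgap24 (0.15), Kl (0.17) and the sulfate carrier Slc26a1 (0.18).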

How the data were processed

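Two-colour 60-mer arrays measured pooled kidney RNA, 1 array per genotype and age. Per the file headers, Agilent Feature Extraction 9.5.1.1 made the files, with probe positions in build rn3; the series text names an older software version and another array product, and the headers were followed. The deposited spot signals and backgrounds are unnormalized intensity values, and the processed signals are intensity values after the software's background subtraction and dye normalization, per the file headers. Log ratios were deposited on the log10 scale, processed Cy5 over processed Cy3; the series table repeats them without change (largest difference 0), and its column medians are 0 on 5 arrays and -0.0159 on the 3-day array labelled +/+. Each spot also has a deposited p-value of the software.

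With limma 3.58.1 in R 4.3.3, mean signals were corrected by normexp (offset 50) and normalized by loess within each array, with control and flagged spots left out, and spots of a probe averaged. Flags covered 125 to 192 spots an array, and at most 1 spot a channel was saturated. Probes were kept where Cy5 or Cy3 was well above background on 2 or more arrays (30917 of 41012). Names came from a RefSeq gene table of GRCr8, used for names only, with 10735 probes matched by accession, 5577 by symbol, 3730 by synonym and 20970 unnamed; a list gene is read from its brightest probe. Ratios of the 4 mutant arrays were fitted with lmFit and eBayes per genotype against 0 (2 residual degrees of freedom), differences from the arrays labelled +/+ over 6 arrays with age as a term, and age over channel levels after Aquantile with pool as a term. P-values were adjusted by Benjamini-Hochberg over all probes, with 0.05 as threshold. Precision rests on how many arrays there were. The fits were tested on simulated data. Sequences are those of the deposited files or of RefSeq.

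The members and gene lists were chosen with earlier results of these data known. All 9 members are named; of other route genes, the 3 largest called changes per list, direction and comparison are named, beside Slc47a1, Abcc2, Abcc4, Slc13a3 and Hnf4a in any case, and the genes nearest in profile; a few results under this rule are not reported here. Alternatives covered background correction, centring, scaling, the filter, 1 probe a gene, age as a block and each array or pool left out.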

Additional observations from a re-analysis of the deposited data

Results flagged for a closer look

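Of the 10 probes 3 had ratios to the reference on opposite sides of 0 at the 2 ages, with both mutant pools above it at 7 days and both below it at 3 days, except that Slc22a2 was close to 0 in both genotypes at 7 days. The 7-day minus 3-day difference of the log2 ratio was 0.60 for Slc22a8 (adjusted p = 0.211, limma), 0.54 for Slc22a5 probe A_44_P1001820 (adjusted p = 0.223) and 0.33 for Slc22a2 probe A_44_P266976 (adjusted p = 0.509). The difference passed the test for none of them, with unadjusted p-values (limma) of 0.00112, 0.00131 and 0.0469. The probes were picked by the signs of these same ratios, which favours a large difference. The p-values are therefore no separate test of it.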

How the results depend on the processing

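The precision of every value is limited by 2 arrays a genotype and 1 reference pool an age. With median centring, 13257 of the 30916 probes tested were called for Cy/Cy against the reference, 76.5% of them higher. Under the alternatives the counts of transporter probes called among 10 changed as follows. For Cy/Cy against the reference, where 0 were called, 7 were called with median centring, and 0 to 2 when 1 array was left out, the 2 being Slc22a24 and Slco1a3 A_42_P709191 without either Cy/+ array. For Cy/+, where 3 were called, 0 were called with the scanner software's log ratios, 5 with median centring, 5 with age as a block, and 3 to 4 when 1 array was left out. For age, where 2 were called, 0 were called with the software's processed signals and 0 to 2 when 1 pool was left out. The counts for Cy/Cy minus Cy/+ (0) and for both comparisons with the arrays labelled +/+ (10) held in every alternative run (8 of 8 against the arrays labelled +/+ at 1 probe a gene). Median centring moved the median of all probes to 0.17 for Cy/Cy and 0.19 for Cy/+; relative to it Slc22a24 was at 0.85 and 1.57, and Slco1a3 A_42_P709191 at 0.90 and 1.27. The software's ratios moved that median by up to 0.23 against the arrays labelled +/+. Over all probes the Cy/+ calls numbered 2450 (58.4% higher), 0 with the software's ratios, 405 with scaling between arrays (69.6% higher), 929 with 1 probe a gene, 4879 with age as a block (53.3% higher), 15383 with median centring (80.3% higher) and 811 to 3249 when 1 array was left out; the cause was not tested.

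Of 640 values of single probes under an alternative 27 changed sign, none of a called value. With median centring Slc22a8 was at 0.34 for Cy/Cy and 0.44 for Cy/+, Slc22a6 at 0.20 and Slc22a5 A_44_P1001820 at 0.29 for Cy/+, and Slc22a25 at -0.021 for Cy/Cy minus Cy/+. Relative to the median of all probes under that setting, Slc22a8 was at 0.17 and 0.25. On the same footing Slc22a6 was at 0.0082, Slc22a5 A_44_P1001820 at 0.099 and Slc22a25 at 0.039. With scaling Slc22a5 A_44_P473074 was at 0.046 for Cy/Cy minus Cy/+. With the software's ratios Slc22a2 was at -0.0035 for Cy/Cy. For age Slc22a5 A_44_P473074 was at -0.038 with the software's signals and -0.0016 with the reference of all 3 arrays. When 1 array was left out, the values of probes that changed sign for Cy/Cy ran from -0.31 to 0.18 (Slc22a8), -0.14 to 0.42 (Slc22a5 A_44_P1001820), -0.047 to 0.40 (Slc22a5 A_44_P473074) and -0.040 to 0.053 (Slc22a2). For Cy/+ they ran from -0.40 to 0.30 (Slc22a8), -0.34 to 0.17 (Slc22a5 A_44_P1001820) and -0.57 to 0.0064 (Slc22a2). For Cy/Cy minus Cy/+ they ran from -0.37 to 0.34 (Slc22a8), -0.21 to 0.33 (Slc22a25), -0.051 to 0.51 (Slc22a5 A_44_P1001820) and -0.25 to 0.20 (Slc22a5 A_44_P473074). With 1 pool left out they ran for age from -0.093 to 0.23 (Slc22a2) and -0.11 to 0.14 (Slc22a5 A_44_P473074).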

Other observations

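Slc22a24, Slc22a25, Slc22a8 and Slc22a6 lie within 889 kb of rn3 (chr1:210567731-211456569), with 3 other probes that passed the filter, all on the minus strand. Ust5r, a related carrier gene, had a log2 ratio to the reference of 0.36 in Cy/Cy pools (adjusted p = 0.393, limma, n = 2) and rose by 0.87 in Cy/+ pools (adjusted p = 0.00703). UST4r was at -0.01 and -0.04, and an unnamed probe at 0.18 and 0.43 (adjusted p = 0.0804 in Cy/+ pools). These genes were chosen by position after the values of the transporters were known.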
